A study of Mus musculus with 9 samples.

Results

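A focal adhesion is the plaque through which a cell grips its substrate. Integrins in the membrane bind the matrix outside, adaptor proteins inside tie them to actin filaments, and kinases recruited to the plaque pass the state of the grip on as tyrosine phosphorylation. Force on the plaque unfolds several of its proteins and lets further partners bind, so focal adhesions are regarded as a place where cells sense stretch. The genes of 10 such proteins were followed here by their symbols in the deposited tables, out of 22972 gene names. They are the integrin activator Tln1, the actin linkers Vcl, Flna and Actn4, the LIM domain adaptors Zyx and Pxn, the docking adaptor Bcar1, the pseudokinase Ilk and the tyrosine kinases Ptk2 and Src. Positions are those of GENCODE M21 on GRCm38. All 10 had a row in each library and all 10 reached the mean of 1 FPKM required for testing.

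The libraries were made from B16, a mouse melanoma cell line of wild-type genotype cultured in DMEM with serum on flexible PDMS film, and were labelled day 3. They comprise 3 control libraries without straining (CTL), 3 libraries of cells strained cyclically for 72 h (MS) and 3 libraries of cells given 100 ng/mL blebbistatin, an inhibitor of non-muscle myosin II, for 72 h (Blebb.). For the Blebb. libraries the labels speak of blebbistatin alone, whereas the study's heat map names straining with blebbistatin. The study's methods also describe straining after the inhibitors were added. By the labels alone, the comparison of Blebb. with MS may or may not be one at equal straining. The labels call the replicates parallel experiments and do not say whether they came from separate cultures, so that every p value measures only the spread between these libraries. The study counted and measured vinculin-stained focal adhesions after 6 h, while RNA was taken after 72 h. The values compared below are levels of mRNA, and they do not report on the number of adhesions or on phosphorylation.

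FPKM is the number of fragments of a gene relative to its length and to the total mapped in that library, so that levels of different genes can be set side by side. It was analyzed as log2(FPKM + 1), with 10109 genes tested in limma. The labelled cell type was checked against its markers. All 7 melanocyte markers were expressed in all libraries, with summed levels from 7444 to 12933 FPKM, against 0.184 to 0.567 FPKM for 6 fibroblast markers (Dcn and Lum at 0), 2.10 to 4.32 FPKM for 6 macrophage markers (Ptprc at 0, Cd68 the most abundant) and at most 0.0314 FPKM for 6 keratinocyte markers (Krt1, Krt10, Dsg3 and Trp63 at 0). Correlations between libraries of a group overlapped with those between groups. Of the summed variance, 13.2% lay between the groups over all genes tested and 13.7% over the 10 focal adhesion genes. A random split into groups of 3 libraries also leaves a share between groups, so that these values do not measure an effect of treatment. CTL replicate 1, MS replicate 3 and Blebb. replicate 2 stood apart in the summed level of 7 genes of the integrated stress response (Atf4, Ddit3, Trib3 and others). Atf3, 1 of the 7, did not set them apart by itself, with its highest value in MS replicate 1 (4.85 FPKM). The summed level of the 7 genes was 1016, 788 and 1045 FPKM in the libraries that stood apart and from 332 to 496 FPKM in the other 6 libraries. Results were therefore also computed without these 3 libraries. In bulk samples, fewer cells of a type and less RNA per cell cannot be told apart.

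The 10 genes spanned a wide range of levels, from Flna at 120.5 ± 18.5 FPKM (SD, n = 9 libraries) to Vcl at 6.15 ± 1.06 FPKM. Flna was followed by Actn4 at 100.5 ± 21.3 FPKM, Tln1 at 75.2 ± 8.20 FPKM and Zyx at 53.2 ± 7.03 FPKM. Src (41.5 ± 5.00 FPKM) and Ilk (40.9 ± 4.46 FPKM) came next, then Pxn (25.5 ± 4.75 FPKM), Bcar1 (14.0 ± 1.42 FPKM) and Ptk2 (13.1 ± 2.92 FPKM). The order was not firm at every step. Flna exceeded Actn4 in 5 of 9 libraries, Src exceeded Ilk in 5 of 9 and Bcar1 exceeded Ptk2 in 5 of 9, and these neighbours did not differ beyond their spread. The other steps held more widely. Tln1 was above Zyx, Zyx above Src, Ilk above Pxn, Pxn above Bcar1 and Ptk2 above Vcl in 9 of 9 libraries, and Actn4 was above Tln1 in 7 of 9. The ranges of Ilk and Pxn, of Pxn and Bcar1 and of Ptk2 and Vcl did not meet at all. Flna thus stood at rank 580 of the 10109 genes tested and Vcl, whose protein is the usual stain for focal adhesions, at rank 6474. The median level of the 10 genes was 41.2 FPKM, against 10.4 FPKM over all genes tested.

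**Figure D1:**
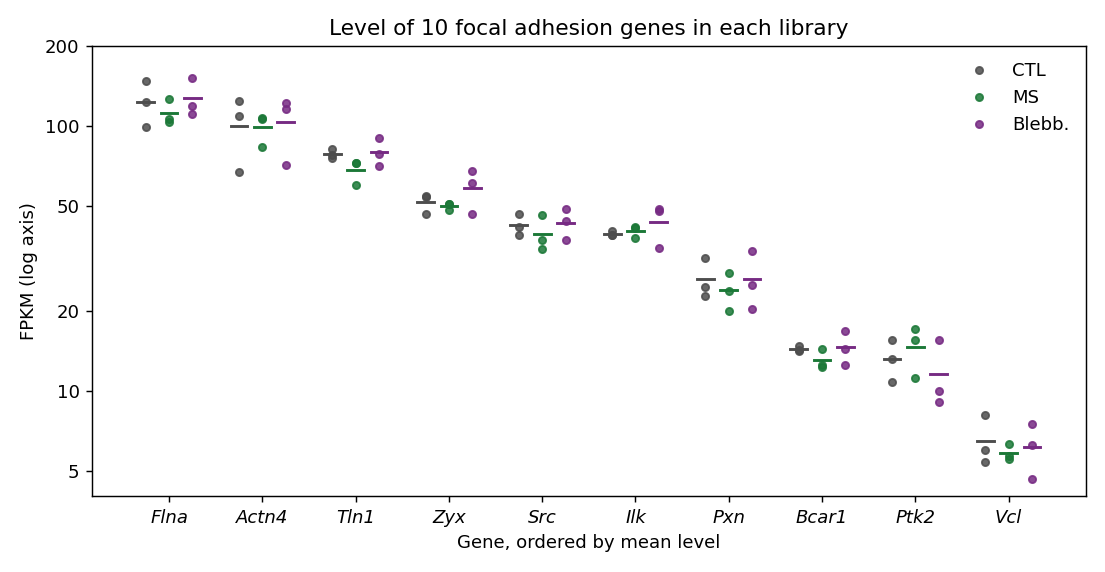
FPKM (log axis) of the 10 genes in the 9 libraries, with a point for each library, a bar for the mean of each group of 3, and colors for CTL, MS and Blebb. The levels run from Flna near 120.5 FPKM to Vcl near 6.15 FPKM, and the points of the 3 groups overlap for each gene except Tln1 in MS against CTL.

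The members also differed in how steady they were across libraries. Bcar1, which docks kinases and adaptors once its substrate domain is phosphorylated, varied least, with an SD of 0.13 on the log2 scale and a highest value 1.37 times the lowest. Ilk (SD 0.15) and Tln1 (SD 0.16) were similarly steady. Actn4 (SD 0.33) and Ptk2 (SD 0.31) varied most, with highest values 1.85 and 1.88 times the lowest. The median SD was 0.19 for the 10 genes and 0.23 over all genes tested, so that a typical member was a little steadier than a typical gene. This was not matched for level, and the median level was 41.2 FPKM for the members and 10.4 FPKM over all genes tested.

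Talin-1, the product of Tln1 (chr4:43531519-43562691, minus strand), binds the tails of integrin beta subunits, switches integrins on and is stretched between them and actin. Tln1 was expressed at 75.3, 77.5 and 81.6 FPKM in CTL replicates 1, 2 and 3, at 59.9, 72.1 and 72.4 FPKM in MS and at 89.7, 78.2 and 70.5 FPKM in Blebb. Each MS library was below each CTL library, and Blebb. overlapped with both. The means were 78.1 ± 3.16 FPKM in CTL and 68.1 ± 7.11 FPKM in MS (SD, n = 3). The log2 fold change of MS against CTL was -0.20 with a standard error of 0.13 and a 95% interval from -0.49 to 0.092, and it did not pass the threshold (adjusted p = 1.00, limma with Benjamini-Hochberg adjustment). Tln1 was the 1 of 10 members whose libraries did not overlap in this comparison. No member was without overlap in the other comparisons. Over all genes tested, 3.17% did not overlap in MS against CTL, and 2.64% were without overlap and lower in MS. The value rested in part on MS replicate 1, the lowest library, without which it was -0.11, and it was -0.082 once the trend with GC content was removed within each library. Against MS, Blebb. was higher by 0.22 (interval -0.074 to 0.51, adjusted p = 0.897, limma), and this value was 0.13 without Blebb. replicate 1 and 0.026 with the GC trend removed.

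Vinculin, the product of Vcl (chr14:20929398-21033676, plus strand), is recruited to stretched talin and holds it to actin. Vcl was at 5.41, 5.98 and 8.08 FPKM in CTL, at 5.67, 5.54 and 6.31 FPKM in MS and at 6.27, 4.64 and 7.48 FPKM in Blebb. The highest value was found in CTL replicate 3 and the lowest in Blebb. replicate 2, with the MS libraries between them. On the log2 scale MS differed from CTL by -0.12 (interval -0.56 to 0.32, adjusted p = 1.00, limma) and Blebb. from MS by 0.041 (interval -0.40 to 0.48, adjusted p = 0.973, limma). Without CTL replicate 3 the former was 0.030, and without Blebb. replicate 3 the latter was -0.094. Tln1 mRNA exceeded Vcl mRNA by a factor of 12.5 ± 2.37 (SD, n = 9), with 9.42 in Blebb. replicate 3 as the lowest and 16.9 in Blebb. replicate 2 as the highest.

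Filamin A, the product of Flna (chrX:74223461-74249820, minus strand), crosslinks actin filaments into a network and competes with talin for integrin tails. Flna was at 123.1, 99.0 and 146.9 FPKM in CTL, at 105.8, 103.6 and 126.0 FPKM in MS and at 151.1, 118.6 and 110.9 FPKM in Blebb. The CTL values enclosed those of MS, and the log2 fold change was -0.12 (interval -0.53 to 0.28, adjusted p = 1.00, limma) and turned to 0.012 without CTL replicate 3. Blebb. was above MS by 0.17 (interval -0.23 to 0.58, adjusted p = 0.897, limma), by 0.042 without Blebb. replicate 1, which held the highest Flna value, and by 0.015 with the GC trend removed, where MS against CTL was -0.032.

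Alpha-actinin-4, the product of Actn4 (chr7:28893248-28962340, minus strand), bundles the actin filaments that end in focal adhesions. Actn4 was at 67.0, 108.4 and 123.7 FPKM in CTL, at 107.3, 106.0 and 83.4 FPKM in MS and at 121.8, 71.2 and 116.0 FPKM in Blebb. The group means hardly differed, at 99.7 ± 29.3, 98.9 ± 13.4 and 103.0 ± 27.7 FPKM (SD, n = 3), whereas 1 library in each group was low. MS differed from CTL by a log2 fold change of 0.026 (interval -0.58 to 0.63, adjusted p = 1.00, limma). This was -0.23 without CTL replicate 1, -0.12 without the 3 libraries with a high stress response and 0.13 with the GC trend removed. In Blebb. against MS the log2 fold change was 0.028 (adjusted p = 0.987, limma). This was 0.27 without Blebb. replicate 2, -0.11 without Blebb. replicate 1 and -0.15 with the GC trend removed.

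The promoters of these actin linkers were searched for motifs of factors that are tied to actin and to stretch, since the study followed YAP, which reaches DNA through TEAD proteins. RefSeq start sites on GRCm38.p6 gave 10 promoters for 8 of the 10 genes (Ilk and Bcar1 with 2 each, Pxn and Ptk2 with none), each from 250 bases before the start to 50 after it. Both strands were searched. The starts used for Flna and Src lie inside the spans of these genes in GENCODE M21, and the region before their outer ends was not searched. Vcl was the only one of these genes with a CArG box, the site of serum response factor, a motif found in 1.63% of 32851 promoters. The TEAD motif GGAATG was found in the promoters of Vcl, Flna and Actn4, and in 14.7% of all promoters. CACGTG, an E-box, was found in Ilk alone (7.15% of all promoters), GGGCGG, the GC box, in 8 of the 10 promoters (35.7% of all promoters), and CATGTG (14.2%) and TATAAA (13.6%) in none. The 10 promoters were richer in GC than most, with a median of 68.2% GC and 29.5 CpG, against 52.7% and 7 over all promoters. These shares and medians are set against all promoters and not against those of genes expressed at a like level. A match of letters is a description and was not tested for binding. The promoters with GGAATG are shown, Vcl being the one that also holds a CArG box, from base 250 to base 101 before the start, 5′ to 3′ on the strand of the gene, with capitals for the CArG box (the first in Vcl) and for GGAATG or its reverse complement. They lie at chr14:20929148-20929297 (plus strand, Vcl), chrX:74246635-74246784 (minus strand, Flna) and chr7:28962433-28962582 (minus strand, Actn4) on GRCm38.p6, and the marked motifs do not overlap.
Vcl: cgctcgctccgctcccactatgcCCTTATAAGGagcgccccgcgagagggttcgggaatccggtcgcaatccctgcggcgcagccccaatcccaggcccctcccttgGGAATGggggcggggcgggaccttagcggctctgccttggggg
Flna: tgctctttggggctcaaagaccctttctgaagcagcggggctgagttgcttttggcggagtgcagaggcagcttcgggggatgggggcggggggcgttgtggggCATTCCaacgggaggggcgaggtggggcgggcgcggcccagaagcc
Actn4: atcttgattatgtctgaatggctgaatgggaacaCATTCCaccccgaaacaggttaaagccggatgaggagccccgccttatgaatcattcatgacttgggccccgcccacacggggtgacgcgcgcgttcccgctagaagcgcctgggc

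Vcl, Flna and Actn4, which shared the GGAATG motif, varied together in some libraries and not in others. All 3 were above their own mean in CTL replicate 3 and in Blebb. replicate 1, but Flna was above its mean in CTL replicate 1 and MS replicate 3, where Actn4 was far below its own. Pearson's r, as a description, was 0.103 for Flna and Actn4, 0.698 for Vcl and Actn4 and 0.380 for Vcl and Flna over the 9 libraries. Over the 6 libraries without a high stress response it was 0.925, 0.799 and 0.558. Some pairs of members in which the motif was not found in both reached such values too. Over the same 6 libraries r was 0.909 for Tln1 and Bcar1 and 0.839 for Zyx and Flna, while other pairs were lower or negative. A link with the motif was not tested. The points behind each r share the library and its GC trend.

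Zyxin and paxillin carry LIM domains, and zyxin moves along stress fibers to sites of strain and recruits actin regulators there. Zyx (chr6:42349630-42360213, plus strand) was at 54.2, 46.4 and 53.9 FPKM in CTL, at 48.0, 50.7 and 50.5 FPKM in MS and at 67.4, 61.0 and 46.4 FPKM in Blebb. The MS values lay close together and within the range of CTL, and the highest values were those of Blebb. replicates 1 and 2. MS was within 0.05 of CTL on the log2 scale, at -0.047 (interval -0.38 to 0.29, adjusted p = 1.00, limma). It was 0.21 in Blebb. against MS (interval -0.13 to 0.54, adjusted p = 0.897, limma) and 0.16 in Blebb. against CTL (adjusted p = 1.00, limma). Blebb. replicate 3 was the exception among the Blebb. libraries, and without it the difference from MS was 0.36, with an unadjusted p under 0.05, as for 9.24% of all genes in that fit, and an adjusted p of 0.450 (limma). It was 0.096 without Blebb. replicate 1 and 0.020 with the GC trend removed.

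Paxillin, the product of Pxn (chr5:115506676-115555987, plus strand), is a scaffold that binds vinculin and focal adhesion kinase. Pxn was at 31.8, 24.7 and 22.7 FPKM in CTL, at 20.02, 23.8 and 27.9 FPKM in MS and at 25.1, 33.6 and 20.3 FPKM in Blebb. The groups overlapped throughout. The highest value of each group was found in the library with the high stress response, the reverse of Actn4. MS was below CTL by a log2 fold change of -0.14 (interval -0.61 to 0.34, adjusted p = 1.00, limma) and 0.00079 without CTL replicate 1. It was 0.12 in Blebb. against MS (adjusted p = 0.913, limma) and -0.067 without Blebb. replicate 2. With the GC trend removed these values were -0.014 and -0.079.

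Bcar1 and Ilk are the docking adaptor and the pseudokinase of the set. Bcar1 (chr8:111710474-111743809, minus strand) was at 14.2, 14.1 and 14.8 FPKM in CTL, at 12.3, 14.3 and 12.5 FPKM in MS and at 16.9, 14.3 and 12.5 FPKM in Blebb. The CTL libraries lay close together, and MS replicate 2 fell among them while the other MS libraries were lower. For MS against CTL the log2 fold change was -0.13 (interval -0.44 to 0.18, adjusted p = 1.00, limma) and 0.14 in Blebb. against MS (adjusted p = 0.897, limma). Both values lost their direction with the GC trend removed, at 0.0036 and -0.073.

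Ilk (chr7:105736592-105742925, plus strand) was at 38.6, 38.7 and 40.2 FPKM in CTL, at 41.5, 40.9 and 37.8 FPKM in MS and at 47.5, 48.3 and 34.6 FPKM in Blebb. The highest 2 and the lowest of all 9 values were in Blebb., whose SD of 7.71 FPKM compares with 0.857 FPKM in CTL. MS and CTL differed by a log2 fold change of 0.032 (interval -0.29 to 0.35, adjusted p = 1.00, limma) and 0.099 in Blebb. against MS (adjusted p = 0.897, limma). The latter was 0.25 without Blebb. replicate 3, 0.017 without Blebb. replicate 2 and -0.0055 with the GC trend removed. The integrin-linked kinase works in a complex with PINCH and parvin proteins. Ilk mRNA exceeded that of Parva by a factor of 1.64 ± 0.262 (SD, n = 9), between 1.28 and 1.94. Its ratio to Lims1, the gene of PINCH1, ran from 3.67 in MS replicate 1 to 21.8 in Blebb. replicate 2. The ratio to Lims1 thus spanned a wider range than that to Parva.

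The focal adhesion kinase, the product of Ptk2 (chr15:73205102-73423280, minus strand), phosphorylates itself when integrins cluster and then binds Src. Ptk2 was at 10.8, 13.2 and 15.6 FPKM in CTL, at 17.0, 11.2 and 15.5 FPKM in MS and at 9.08, 9.98 and 15.5 FPKM in Blebb. The lowest 2 values were those of Blebb. replicates 1 and 2, and Blebb. replicate 3 lay just below CTL replicate 3 and MS replicate 3, with MS replicate 1 highest. Blebb. was below MS by a log2 fold change of -0.33, the largest difference of any member, with an interval from -0.86 to 0.19 (adjusted p = 0.897, limma). It was -0.55 without Blebb. replicate 3 (adjusted p = 0.450, limma), -0.19 without Blebb. replicate 1 and -0.24 with the GC trend removed. The value of MS against CTL was 0.13 (interval -0.40 to 0.65, adjusted p = 1.00, limma). It was -0.048 without the 3 libraries with a high stress response and 0.088 with the GC trend removed.

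Src (chr2:157418444-157471862, plus strand), the gene of the prototype of the Src family kinases, was at 41.7, 46.4 and 38.8 FPKM in CTL, at 34.2, 46.2 and 37.1 FPKM in MS and at 43.5, 48.7 and 37.2 FPKM in Blebb. The 3 groups covered nearly the same range. Between MS and CTL the log2 fold change was -0.11 (interval -0.46 to 0.23, adjusted p = 1.00, limma) and 0.14 in Blebb. against MS (adjusted p = 0.897, limma), and both turned with the GC trend removed, to 0.015 and -0.069. The kinase pair was not in a fixed ratio. Ptk2 mRNA stood at 0.326 ± 0.108 of Src mRNA (SD, n = 9), from 0.205 in Blebb. replicate 2 to 0.498 in MS replicate 1. Bcar1, a substrate of Src, kept a steadier ratio to it, at 0.339 ± 0.0327 and between 0.294 and 0.387. Bcar1 and Src are also close in GC content (59.9% and 59.3%), and Ptk2 is at 47.0%. What sets the spread of these ratios was not tested. For 11 such ratios, 33 exact two-sided permutation tests between groups gave no p under 0.2 (Ptk2 over Src in Blebb. against MS, adjusted p = 0.924), where 3 libraries against 3 allow none under 0.1.

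Over the 10 genes, none passed the threshold in any comparison, as was the case for all 10109 genes (0% called in each comparison, limma with Benjamini-Hochberg adjustment). At an unadjusted p under 0.05 there were also 0 members in each comparison, against 0.158% of all genes tested in MS against CTL, 1.25% in Blebb. against MS and 0.089% in Blebb. against CTL. Each share is below what a threshold of 0.05 would give on average if no gene changed, so that the fit calls few genes of any kind. The 0 members are therefore no evidence that the members are unchanged. In MS against CTL, 7 of 10 members were lower and their median log2 fold change was -0.12. Over all genes tested the median was -0.0018 and 49.5% were higher. The lean was not kept without CTL replicate 3 (5 of 10 lower) or with the GC trend removed (4 of 10 lower, median 0.0093). The median over all genes was 0.015 with the GC trend removed. In Blebb. against MS, 9 of 10 were higher with a median of 0.13, Ptk2 being the exception. Over all genes tested 49% were higher, with a median of -0.0059. With the GC trend removed 4 of 10 members were higher with a median of -0.037, beside -0.048 over all genes in that fit. The 2 comparisons share the MS libraries, so that a member low in MS is moved in both. In Blebb. against CTL, which does not involve MS, 7 of 10 were higher with a median of 0.021, against 46% of all genes tested. With the GC trend removed 2 of 10 were higher with a median of -0.054, beside -0.032 over all genes in that fit. The intervals were narrowest for Tln1 and widest for Actn4. For Tln1 they leave room for a fold change of MS against CTL between 0.711 and 1.07, and for Actn4 between 0.668 and 1.55.

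**Figure D2:**
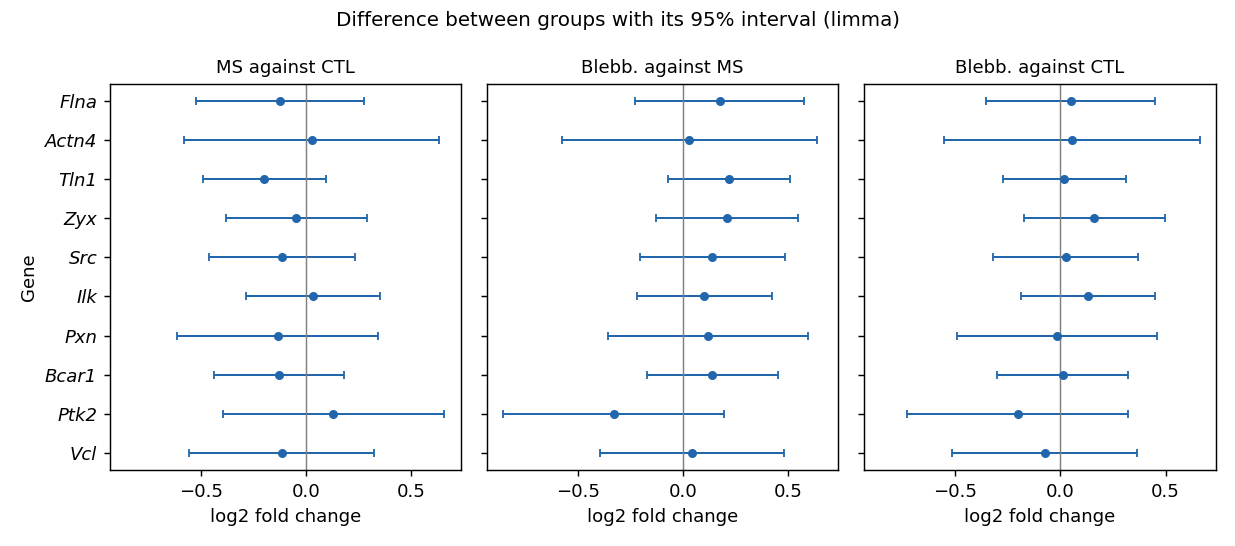
Log2 fold change of the 10 genes in MS against CTL, Blebb. against MS and Blebb. against CTL, with points for the limma estimate and bars for its 95% interval. All 30 intervals include 0, and most points lie below 0 in the first comparison and above 0 in the next, a lean that was not kept once the GC trend was removed.

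These small differences were set beside the GC content of the transcripts. The median GC content of the 10 genes was 56.0%, against 49.9% over the genes tested, and 8 of 10 were above that value. Bcar1 (59.9%) and Src (59.3%) were the richest, and Ptk2 (47.0%) and Vcl (48.6%) lay below it. Libraries differed in how far GC-rich genes were raised. Across genes, which are not independent replicates, Pearson's r of GC content with how far each gene lay from its own mean was 0.55 in Blebb. replicate 1, 0.54 in Blebb. replicate 2 and 0.45 in CTL replicate 1. It was -0.64 in MS replicate 1, -0.54 in Blebb. replicate 3 and -0.42 in CTL replicate 3. Blebb. replicate 1 held the highest Flna, Tln1, Zyx and Bcar1 and the lowest Ptk2, and 8 of 10 members were above their own mean there. MS replicate 1 held the lowest Tln1, Pxn, Bcar1 and Src and the highest Ptk2, with 3 of 10 above their own mean. CTL replicate 3 differed from this, with 7 of 10 members above their own mean at r = -0.42. In the remaining libraries r was -0.18 (CTL replicate 2), 0.057 (MS replicate 2) and -0.16 (MS replicate 3). Whether GC content sets the differences between members was not tested.

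Actn4 and Pxn were the members that set the 3 libraries with a high stress response apart from the rest. Actn4 was at 67.0, 83.4 and 71.2 FPKM in CTL replicate 1, MS replicate 3 and Blebb. replicate 2, and between 106.0 and 123.7 FPKM in the other 6 libraries. Pxn ran the other way, with 31.8, 27.9 and 33.6 FPKM in the same libraries and between 20.02 and 25.1 FPKM in the others. The ratio of Actn4 to Pxn was accordingly 2.11, 2.99 and 2.12 there and between 4.39 and 5.72 elsewhere. The remaining 8 members overlapped between these libraries and the others. Among all genes tested, 31.9% did not overlap between the same libraries, and the 2 of 10 members are not more than that share. These libraries were singled out by their values, carry all 3 labels and are no group of the study, so the difference was not tested.

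**Figure D3:**
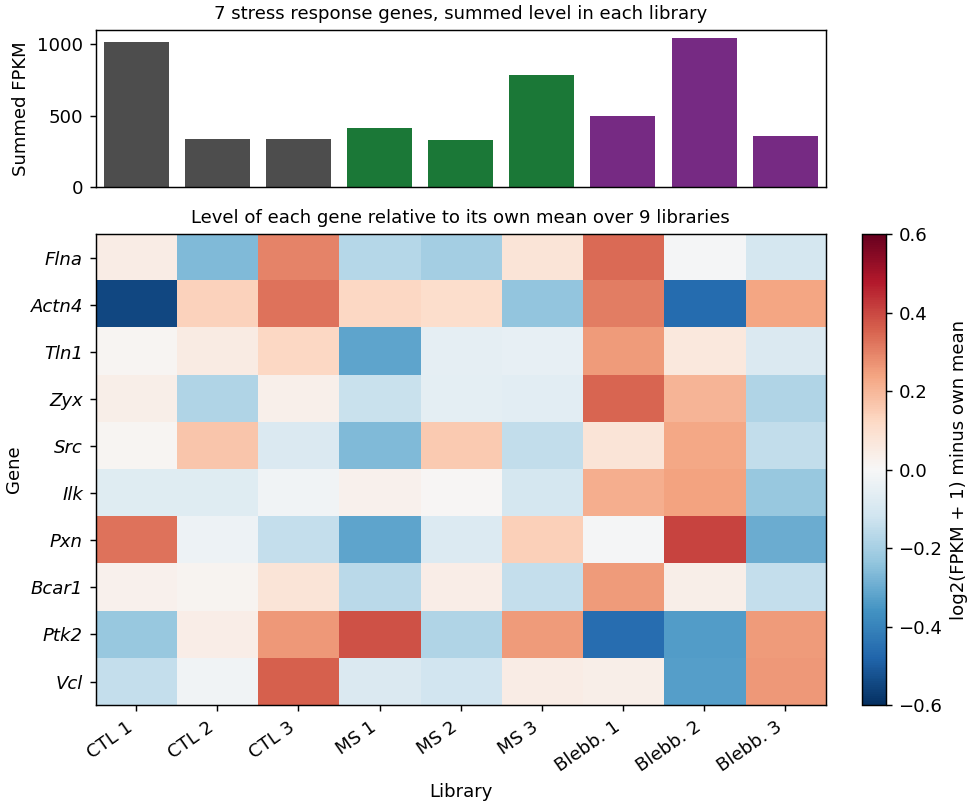
Above, bars give the summed FPKM of 7 integrated stress response genes in each library. Below, colors give log2(FPKM + 1) of each gene minus its own mean over the 9 libraries. Actn4 is blue and Pxn red in CTL 1, MS 3 and Blebb. 2, where the bars reach 1016, 788 and 1045 FPKM, and the column of Blebb. 1 is red in 8 of 10 rows, with Ptk2 blue.

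Most of the 10 genes belong to small families, and the deposited values show which copy B16 cells used. Tln1 held between 86.1% and 91.1% of the summed level of its pair in each library, beside Tln2 at 9.48 ± 1.48 FPKM (SD, n = 9). Pxn held 99.0% or more beside its relatives Tgfb1i1, at most 0.106 FPKM, and Lpxn, at most 0.180 FPKM. Bcar1 likewise held 98.1% or more, since Nedd9 reached at most 0.248 FPKM and Efs 0.0420 FPKM.

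The families of the kinases and of alpha-actinin were more mixed. Actn1 was at 30.0 ± 5.76 FPKM (SD, n = 9), so that Actn4 held between 75.6% and 78.5% of the pair in every library, a narrow range although both genes varied. The low Actn4 values of CTL replicate 1, MS replicate 3 and Blebb. replicate 2 went with the lowest Actn1 values, at 21.5, 26.9 and 22.2 FPKM. Ptk2 held from 61.8% in Blebb. replicate 2 to 79.3% in MS replicate 1 beside Ptk2b, the gene of the related kinase Pyk2, at 5.07 ± 0.542 FPKM. Ptk2b was at 4.46, 4.56 and 4.96 FPKM in MS and at 5.49, 6.16 and 5.00 FPKM in Blebb., without overlap, a log2 fold change of 0.21 that did not pass the threshold (adjusted p = 0.897, limma). Over all genes tested, 3.73% did not overlap in this comparison and 3.05% were without overlap and higher in Blebb. The share of Ptk2 in the pair was 75.4 ± 4.09% in MS and 66.6 ± 7.81% in Blebb. (SD, n = 3), with overlap.

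Src held between 65.4% and 78.3% of the summed level with Fyn (10.98 ± 1.72 FPKM), Lyn (3.17 ± 0.601 FPKM) and Yes1 (1.99 ± 1.18 FPKM). Yes1, at a GC content of 41.1%, ran from 0.532 FPKM in Blebb. replicate 2 to 3.59 FPKM in MS replicate 1. Zyx was the only one of these genes matched by a relative. Trip6 was at 57.1 ± 5.80 FPKM and was exceeded by Zyx in 4 of 9 libraries, while Lpp stood at 0.575 ± 0.305 FPKM.

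**Figure D4:**
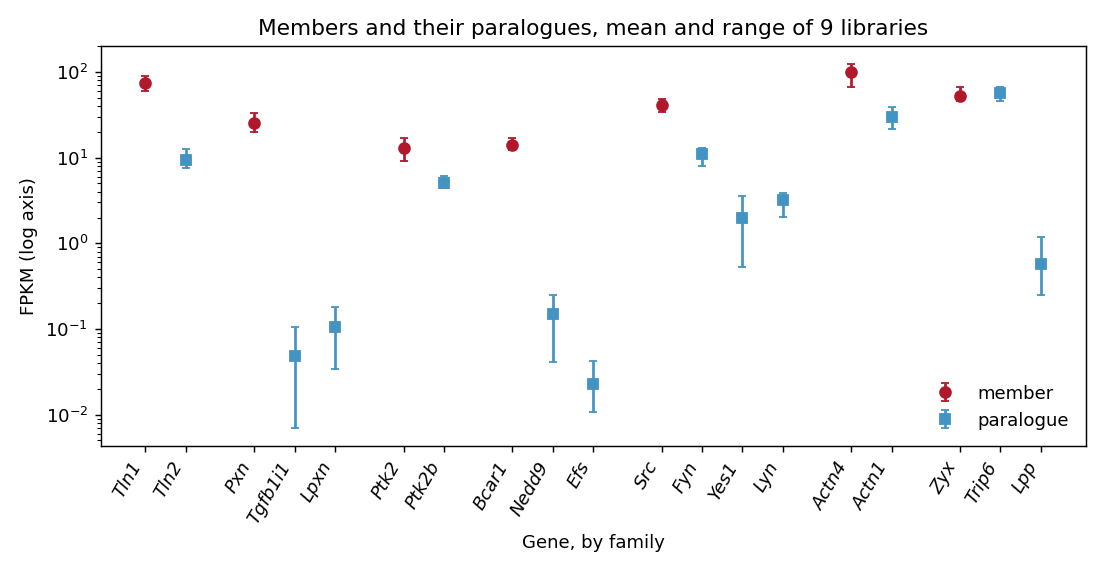
Mean FPKM (log axis) over the 9 libraries of 7 of the members (circles) and their relatives (squares), with bars from the lowest to the highest library. Each of these members lies above its relatives in 9 of 9 libraries except Zyx, whose mean of 53.2 FPKM is next to Trip6 at 57.1 FPKM.

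Other genes of the focal adhesion were followed in 5 lists of 75 genes in all, of which 59 were tested. None passed the threshold in any comparison. In MS against CTL, 18 of 59 were higher and 41 lower with a median of -0.052, in Blebb. against MS 33 were higher and 26 lower with a median of 0.028, and in Blebb. against CTL 26 were higher and 33 lower with a median of -0.026. Over all genes tested, 49.5%, 49% and 46% were higher. With the GC trend removed the medians of the 59 were -0.015, -0.044 and -0.070. Over all genes in that fit they were 0.015, -0.048 and -0.032, in the same order. None of the 59 had an unadjusted p under 0.05 in any comparison (limma), where few of all genes tested did. Among the integrin activators and the complex of Ilk, 7 of 10 were tested and Fermt1 was at 0 in all libraries. The most abundant were Parvb, a beta-parvin, at 62.0 ± 5.97 FPKM (SD, n = 9) and Rsu1, a partner of PINCH, at 44.8 ± 4.05 FPKM. Fermt2, the gene of the integrin activator kindlin-2, was at 16.6 ± 5.86 FPKM. Of the actin linkers and LIM proteins, 19 of 22 were tested. Csrp1, a LIM protein that binds alpha-actinin, was the most abundant at 386.2 ± 62.9 FPKM, above each of the 10 members, followed by Sorbs3, the gene of vinexin, at 84.2 ± 25.7 FPKM.

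Of the signalling adaptors and scaffolds, 16 of 19 were tested, led by Rapgef1 (63.2 ± 6.17 FPKM, SD, n = 9) and Shc1 (62.4 ± 9.45 FPKM), with Grb7 at 0 in all libraries. Of the kinases and phosphatases, 9 of 10 were tested. Csk, the kinase that holds Src in its inactive state, was at 96.9 ± 11.7 FPKM and so above Src in level. Ptpn11, the phosphatase SHP2, was at 36.4 ± 3.95 FPKM. Csk was at 99.9, 97.7 and 95.4 FPKM in CTL, at 74.8, 101.5 and 88.1 FPKM in MS and at 116.2, 106.6 and 91.6 FPKM in Blebb. It differed by -0.16 (MS against CTL) and by 0.25 (Blebb. against MS) on the log2 scale, which did not pass the threshold (adjusted p = 1.00 and 0.897, limma). Genes without overlap between groups were Tns2 in MS against CTL (lower, -0.22), Ptk2b, Lasp1 (0.12) and Nck2 (0.098) in Blebb. against MS (all higher), and Parva in Blebb. against CTL (lower, -0.086), each named for this after the values were seen. They are 1, 3 and 1 of 59 genes, beside 3.17%, 3.73% and 2.08% of all genes tested.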

How the data were processed

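RNA was extracted with TRIzol, made into libraries with the SMARTER kit and sequenced on an Illumina platform. The authors deposited one FPKM value per gene for each of 9 libraries, 3 per group. In CTL replicate 1 the header gives a name in place of the unit; the values were taken as FPKM because they sum to 484093, near the others (439939 to 483140). The submitters' processing notes name GRCm38 and mm10. The aligner, the counter and the annotation are not given in the sources used here. Low values of different libraries shared no step of 1 read (at most 1.59% of their ratios in a bin of 0.02 on the log2 scale), so that depth is unknown and replicate spread is the only measure of precision.

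Titles gave each library its group and number. Values were used as log2(FPKM + 1), which understates changes of low genes. Genes averaging 1 FPKM or more (10109) were fitted in limma 3.58.1 (R 4.3.3) with 3 groups, a mean-variance trend, two-sided tests and Benjamini-Hochberg adjustment over all of them at a threshold of 0.05. The fit was tested on simulated data. GC content is that of a symbol's longest transcript in GENCODE M21 (95.6% of genes tested). The 10 genes and the lists were chosen with earlier results of these data known. Named are the 10 genes, their relatives, the 2 most abundant genes of each other list, and the gene most alike each member. Alternatives were a pseudocount of 0.1, no minimum or a minimum of 5 FPKM, median-of-ratios factors, quantile normalization, a fit with no trend, a fit of only the groups compared, a replicate block, removal of the GC trend (loess, span 0.5), a block for or removal of CTL replicate 1, MS replicate 3 and Blebb. replicate 2, and each library left out. Replicate numbers were not used to pair the libraries in the main fit. The relatives of 1 member are not reported here.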

Additional observations from a re-analysis of the deposited data

How the results depend on the processing

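No member passed an adjusted p of 0.05 under any alternative, and the number of genes passing was 0 of all genes tested in each comparison apart from leaving out single libraries, where it was 0 to 1 for MS against CTL, 0 to 1 for Blebb. against MS (1 gene without MS replicate 2 in both) and 0 for Blebb. against CTL. The number of other focal adhesion genes passing was 0 throughout. With the replicate number as a block it was 0 genes, and at an unadjusted p under 0.05 it gave 14, 119 and 10 genes in MS against CTL, Blebb. against MS and Blebb. against CTL, beside 16, 126 and 9 without it. A block for CTL replicate 1, MS replicate 3 and Blebb. replicate 2 gave 124 and 586 such genes in MS against CTL and Blebb. against MS, and no minimum level gave 183 in MS against CTL. The deviations of same-numbered libraries had correlations from -0.78 (CTL and MS replicate 1) to 0.84 (CTL and Blebb. replicate 3). The libraries with a high stress response carry different numbers and enter these correlations. Whether the numbers mark a shared culture or run can therefore not be told from them.

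A changed minimum level, a fit with no trend, a fit of only the groups compared and either block leave a log2 fold change as it is. Their values are counted here, although they could not turn. Of 330 log2 fold changes of single members under the alternatives that leave out no single library, 309 kept their direction and 21 did not. In MS against CTL these were, with the GC trend removed, Zyx (0.068), Bcar1 (0.0036) and Src (0.015), and, without CTL 1, MS 3 and Blebb. 2, Ptk2 (-0.048) and Actn4 (-0.12). In Blebb. against MS they were Actn4 under quantile normalization (-0.014), Pxn (-0.079), Ilk (-0.0055), Bcar1 (-0.073), Src (-0.069) and Actn4 (-0.15) with the GC trend removed, and Ilk without the 3 libraries (-0.024). In Blebb. against CTL they were Pxn with median-of-ratios factors (0.014), Tln1 (-0.0091) and Src (-0.0041) under quantile normalization, Tln1 (-0.056), Flna (-0.017), Bcar1 (-0.069), Src (-0.054) and Actn4 (-0.016) with the GC trend removed, and Src without the 3 libraries (-0.074). The cause was not tested.

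Leaving out each library turned the direction of 27 of 270 values. The 270 include values that could not turn, since the library left out was in neither group compared. The ranges were, in MS against CTL, -0.23 to 0.20 for Actn4, -0.27 to 0.012 for Flna, -0.25 to 0.00079 for Pxn and -0.22 to 0.030 for Vcl. In Blebb. against MS they were -0.11 to 0.27 for Actn4, -0.067 to 0.28 for Pxn and -0.094 to 0.20 for Vcl. In Blebb. against CTL they were -0.21 to 0.30 for Actn4, -0.093 to 0.11 for Bcar1, -0.096 to 0.19 for Flna, -0.20 to 0.15 for Pxn, -0.066 to 0.12 for Src, -0.072 to 0.099 for Tln1 and -0.21 to 0.084 for Vcl. Where an arm was left with a pair of libraries, the spread was pooled over the groups. Leaving out Blebb. replicate 3 gave 934 genes at an unadjusted p under 0.05 in Blebb. against MS (9.24% of those tested), Zyx, Ptk2 and Ilk among them, and 94 in Blebb. against CTL (0.930%), Zyx and Ilk among them.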

Other observations

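The gene most alike each member was sought among 7004 genes averaging 5 FPKM or more, by Pearson's r over the 9 libraries on log2(FPKM + 1), as a description. The closest were Naglu for Pxn (r = 0.996, Spearman's rho 0.983), Rcc1 for Actn4 (r = 0.996, rho 0.983), Ubqln4 for Tln1 (r = 0.991, rho 0.983), Tgoln1 for Ptk2 (r = 0.988, rho 0.950), Fgfrl1 for Src (r = 0.985, rho 0.933), E130309D02Rik for Bcar1 (r = 0.974, rho 0.950), Ttf2 for Vcl (r = 0.968, rho 0.883), Ddx49 for Ilk (r = 0.960, rho 0.917), Akt1 for Zyx (r = 0.930, rho 0.883) and Edc3 for Flna (r = 0.920, rho 0.80). Without CTL replicate 1, MS replicate 3 and Blebb. replicate 2, the values of r over 6 libraries lay between 0.915 (Zyx) and 0.999 (Tln1). No member was the closest gene of another. The points share the library preparation and its GC trend, and a highest r among many candidates is high by selection.

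Among the members themselves, Actn4 and Pxn had r = -0.857 over the 9 libraries and 0.146 over the 6, so that their opposition rests on the 3 libraries left out. Flna and Actn4 had r = 0.103 over 9 and 0.925 over 6. Tln1 and Bcar1 had 0.871 and 0.909, and Ptk2 and Bcar1 had -0.783 and -0.837, with and without these libraries.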
